A study of Mus musculus with 12 samples.

Results

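Cd74 and 6 genes of the MHC class II pathway (Ciita, H2-Aa, H2-Ab1, H2-Eb1, H2-DMa and H2-DMb1) were followed in B16F10 cells, a mouse melanoma line, among the 55487 genes counted. The genes were selected on these data: Cd74 was picked because its total RNA was higher after Osgep knockdown in all 3 replicate pairs while leukocyte transcripts were near 0, and the other 6 were named with it as its pathway partners. The total RNA values of Cd74 are therefore a description, given with no test. Cells were transduced with a lentivirus carrying a control short hairpin RNA (shCtr, labelled WT) or hairpin number 2 against Osgep (shOSGEP, labelled KD OSGEP). OSGEP is the catalytic subunit of KEOPS, the complex that makes the tRNA modification t6A. Ribosome-protected fragments (RPF, the short mRNA pieces shielded by active ribosomes) and total RNA were each sequenced from 3 replicates per hairpin, which gave 12 libraries in 4 groups of 3. A single Osgep hairpin was used in one cell line, and both groups had undergone transduction.

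MHC class II molecules are pairs of an alpha and a beta chain that carry peptides from the endosome to the cell surface, where helper T cells read them. CD74, the invariant chain, binds newly made class II chains, blocks their groove and guides them to the endosome, and H2-DM then exchanges the remaining fragment of CD74 for antigenic peptide. In professional antigen-presenting cells these genes are switched on together by CIITA, a coactivator that interferon gamma can also induce in other cells, including melanoma cells. CD74 at the cell surface is in addition a receptor for the cytokine MIF.

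Class II promoters carry a conserved pair of elements, the X box, bound by RFX, and the Y box, bound by NF-Y, and CIITA acts on the assembled complex. The promoter sequences are shown because these elements are what the genes of the pathway are known to have in common. Of the 7 genes, 4 had an entry among RefSeq promoters (GRCm38.p6, 250 bases before to 50 after the start). Capitals mark the Y box (TGATTGG), the core of the X box (CTGATGATG) and the cyclic AMP response element (TGACGTCA), all searched on both strands. The sequences run 5′ to 3′ on the strand of the gene. H2-Aa lies at chr17:34287859-34287928 on the minus strand, H2-DMb1 at chr17:34153073-34153142 and H2-Eb1 at chr17:34305751-34305820, both on the plus strand.
H2-Aa: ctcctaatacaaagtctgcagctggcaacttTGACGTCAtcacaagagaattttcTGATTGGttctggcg
H2-DMb1: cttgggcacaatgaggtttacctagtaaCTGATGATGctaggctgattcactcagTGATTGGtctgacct
H2-Eb1: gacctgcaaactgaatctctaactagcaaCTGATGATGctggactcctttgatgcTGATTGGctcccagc

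The Y box began 50 bases before the start in H2-Aa, 63 before it in H2-DMb1 and 61 before it in H2-Eb1. It occurred in 7.82% of the 32851 promoters in the table, and the X box core in 0.527%. Both together were held by 9 promoters (0.0274%), of 7 genes, among them H2-DMb1 and H2-Eb1. H2-Aa had the cyclic AMP response element, present in 1.79% of promoters, upstream of its Y box. H2-DMa had 2 promoter entries and neither held the Y box or the X box core. A match in these letters is a description of the sequence and not a measured binding site.

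Total RNA libraries held 46.7 to 81.1 M counts (M for mega) and RPF libraries 12.9 to 40.3 M, of which 4.42 to 17.02 M fell on protein-coding genes. The RPF library of shOSGEP replicate 1 stood apart, with 15.6% of its counts on protein-coding genes against 29.8% in its shCtr partner and 42.2% to 48.6% in the other 4. Levels are given as raw counts and as counts per M (CPM) on TMM-scaled library sizes, and intervals cover counting error only. A count of 3, taken as the limit that a count of 0 allows, was worth 0.0388 to 0.062 CPM in total RNA and 0.0601 to 0.248 CPM in RPF. The knockdown was read first. Osgep counts in total RNA went from 815, 873 and 739 in shCtr to 38, 536 and 401 in shOSGEP replicates 1, 2 and 3, which are CPM ratios of 0.0425, 0.44 and 0.444. Osgep was thus lower in 3 of 3 pairs, and in total RNA the pair of replicate 1 stood apart from the other 2. In RPF the ratios were 0.631, 0.523 and 0.501, so there replicate 1 was the pair with the smallest reduction. The melanocyte list (7 genes, including the pigment genes Tyr, Dct and Pmel) marked all libraries as melanoma cells. In total RNA it was lowest in shOSGEP replicate 1, at a summed 2655 CPM. It was at 9665 to 16836 CPM in the shCtr total RNA libraries and at 11390 and 12789 CPM in the other shOSGEP ones. In RPF the sum was also lowest in shOSGEP replicate 1, at 1289 CPM. The part of this replicate in the results was not tested, so each result is given by replicate.

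Cd74 (ENSMUSG00000024610, chromosome 18, 60803848 to 60812652, plus strand, GRCm38), whose exons contain the microRNA gene Mir5107, differed most of the members. In total RNA its counts were 350, 106 and 84 in shCtr and 7000, 237 and 785 in shOSGEP replicates 1, 2 and 3. These were 5.95, 1.91 and 1.74 CPM in shCtr and 108, 3.06 and 13.3 CPM in shOSGEP. All 3 pairs were higher in shOSGEP, as the choice of the gene required, but the groups overlapped, since shCtr replicate 1 lay above shOSGEP replicate 2. Within pairs the CPM ratio was 18.2 (95% exact binomial interval 16.4 to 20.3) for replicate 1, 1.6 (1.27 to 2.04) for replicate 2 and 7.64 (6.09 to 9.68) for replicate 3. The shCtr mean was 3.2 ± 2.39 CPM and the shOSGEP mean 41.6 ± 58.1 CPM (SD, n = 3), and the fitted log2 change was 3.70. It was 1.33 without the shOSGEP library of replicate 1 and 2.15 without both libraries of that replicate. Being higher in 3 of 3 pairs was a property of 17.7% of the 14516 genes tested in total RNA, and nothing is read from it for Cd74, which was chosen on it.

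**Figure D1:**
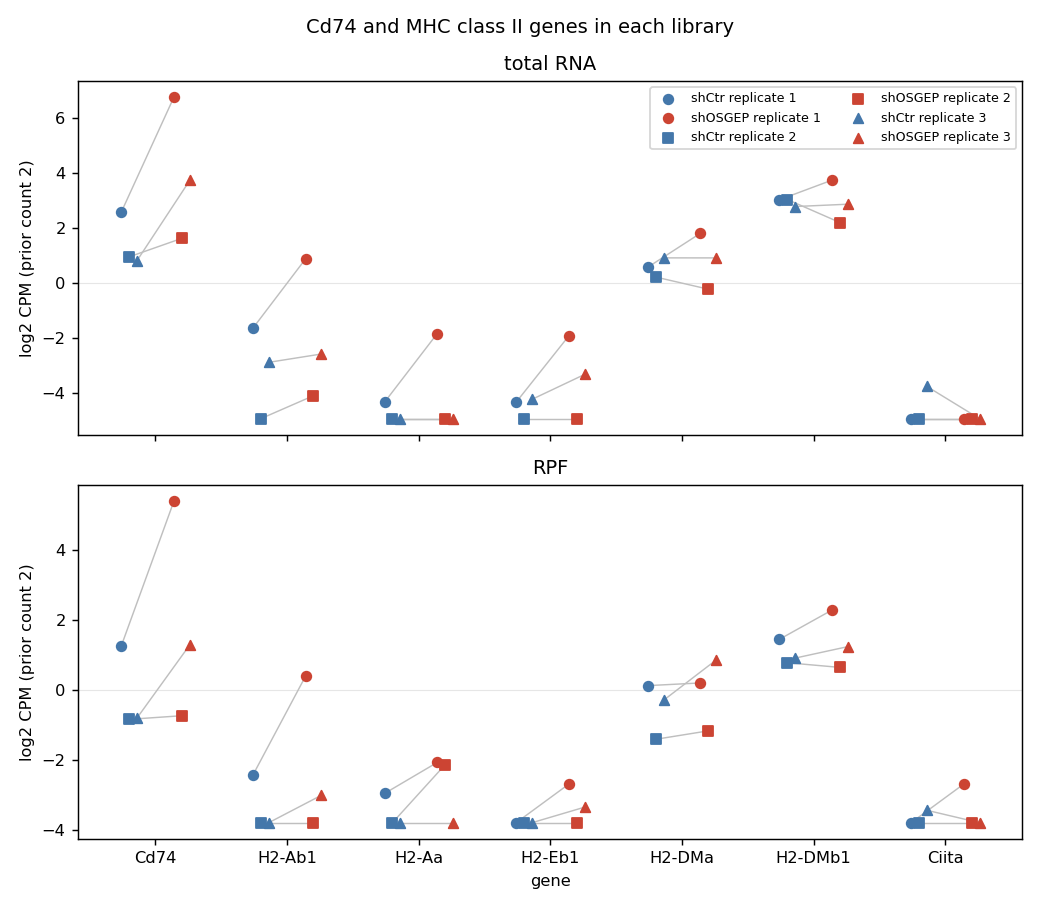
Level of each gene in each library, as log2 CPM with a prior count of 2, in total RNA (top) and RPF (bottom). Blue is shCtr, red is shOSGEP, shapes are replicates and grey lines join the libraries of a replicate. Cd74 is higher in shOSGEP in each pair, while the lowest row of points in each panel marks counts of 0.

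Ribosome footprints on Cd74 were measured in separate libraries that the choice of genes did not use, although from the same cell samples. RPF counts were 41, 8 and 25 in shCtr and 508, 17 and 91 in shOSGEP replicates 1, 2 and 3. That is 2.31, 0.485 and 0.501 CPM in shCtr against 41.9, 0.526 and 2.36 CPM in shOSGEP. Replicates 1 and 3 were clearly separated within their pairs and replicate 2 was not. The ratio was 18.2 (13.2 to 25.6) in replicate 1 and 4.71 (3.0 to 7.65) in replicate 3, but 1.09 (0.444 to 2.91) in replicate 2, where the interval included no change. The fitted log2 change was 3.78 with a standard error of 1.59, and it did not pass the threshold (edgeR quasi-likelihood test, adjusted p = 1.0, unadjusted p = 0.0493, higher in 3 of 3 pairs). No gene passed in this comparison (0% of 13529, with 139 at an unadjusted p under 0.05), and 15.6% of genes were higher in 3 of 3 pairs. The log2 change was 0.39 without the shOSGEP library of replicate 1 and 1.52 without both libraries of that replicate.

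Footprints were next set against the transcript level. The log2 ratio of RPF to total RNA CPM for Cd74 was −1.37, −1.98 and −1.79 in shCtr and −1.37, −2.54 and −2.49 in shOSGEP. Replicate 1 was level and replicates 2 and 3 were lower in shOSGEP, with a mean pair difference of −0.42 ± 0.37 (SD, n = 3). The interaction fit over all 12 libraries, which did not pair the libraries of a cell sample, gave 0.08. It ranged from −0.91 to 0.36 over fits that each left out 1 library. With a block for cell sample the fit gave −0.42, so the sign of the change in translational efficiency differed with the pairing. The change in translational efficiency carries no test here, because it contains the contrast that chose Cd74.

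**Figure D2:**
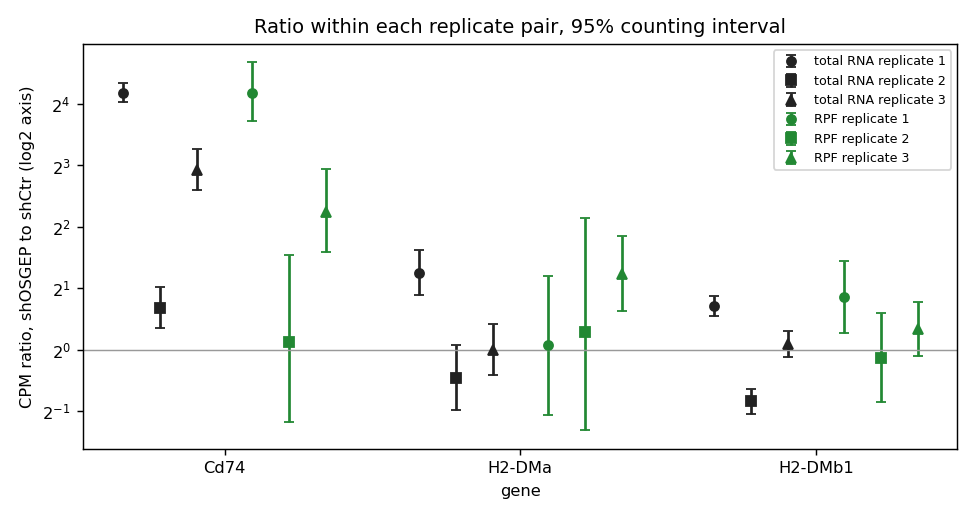
CPM ratio of shOSGEP to shCtr within each replicate pair, on a log2 axis, for the 3 genes with enough counts, in total RNA (black) and RPF (green). Bars are 95% exact binomial counting intervals. The ratios of Cd74 in replicates 1 and 3 lie above 1 in both assays, and its RPF interval in replicate 2 includes 1.

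The classical class II chains, which CD74 would accompany, had few or no counts in most libraries, and the exception was H2-Ab1 in total RNA of shOSGEP replicate 1. H2-Ab1 (ENSMUSG00000073421, chromosome 17, 34257689 to 34269419, plus strand), the beta chain of I-A, had 17, 0 and 5 counts in shCtr total RNA and 117, 2 and 8 in shOSGEP. In RPF it had 2, 0 and 0 counts in shCtr and 15, 0 and 2 in shOSGEP. The total RNA ratio was 6.27 (3.75 to 11.1) in replicate 1 and 1.31 (0.377 to 5.08) in replicate 3, so a difference was resolved in replicate 1 and not in replicate 3. Even there the level reached 1.81 CPM, against 108 CPM for Cd74.

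H2-Aa (ENSMUSG00000036594, 34282744 to 34287823, minus strand), the alpha chain of I-A, had 1, 0 and 0 counts in shCtr total RNA and 16, 0 and 0 in shOSGEP. Its RPF counts were 1, 0 and 0 in shCtr and 2, 5 and 0 in shOSGEP. H2-Eb1 (ENSMUSG00000060586, 34305867 to 34316674, plus strand), the beta chain of I-E, had 1, 0 and 1 counts in shCtr total RNA and 15, 0 and 4 in shOSGEP. Its footprints were 0 in each shCtr library and 1, 0 and 1 in shOSGEP. Replicate 1 thus held the high total RNA library for each of these chains, and both total RNA libraries of replicate 2 were at 0 for H2-Aa and H2-Eb1. Ratios with so few counts were wide, 14.6 (2.26 to 611) for H2-Aa and 13.7 (2.1 to 575) for H2-Eb1 in replicate 1.

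Ciita (ENSMUSG00000022504, chromosome 16, 10480059 to 10528418, plus strand), the coactivator of the pathway, had 0, 0 and 2 counts in shCtr total RNA and 0 in each shOSGEP library. In RPF it had 0, 0 and 1 counts in shCtr and 1, 0 and 0 in shOSGEP. No difference was detectable at this depth, and a count of 0 leaves room for up to 0.062 CPM in any total RNA library. The exons of Ciita overlap those of Dexi on the opposite strand. None of these 4 genes passed the filter on low counts in either assay, so they have no fitted change. Only Cd74, H2-DMa and H2-DMb1 did, which is 3 of 7 in each assay.

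The H2-DM chains, which form the peptide exchanger, were present in every library, and their total RNA pairs did not share a direction. H2-DMa (ENSMUSG00000037649, 34119541 to 34139101, plus strand) had 86, 63 and 90 counts in shCtr total RNA and 225, 64 and 110 in shOSGEP. The CPM ratio was 2.38 (1.85 to 3.09) for replicate 1, 0.729 (0.506 to 1.05) for replicate 2 and 0.999 (0.749 to 1.34) for replicate 3. In RPF it had 18, 5 and 37 counts in shCtr and 13, 12 and 67 in shOSGEP, and there replicate 3 was the pair with the resolved difference, at 2.34 (1.55 to 3.60), against 1.06 (0.477 to 2.28) in replicate 1. Like Cd74 it was higher in 3 of 3 RPF pairs, but the intervals of replicates 1 and 2 included no change. The exons of H2-DMa overlap those of Brd2 on the opposite strand, which was at 305 to 442 CPM in total RNA, and the use of strand in counting is not given in the sources used here.

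H2-DMb1 (ENSMUSG00000079547, 34153072 to 34160230, plus strand) had 479, 455 and 332 counts in shCtr total RNA and 864, 354 and 431 in shOSGEP. Its ratio was 1.64 (1.47 to 1.84) for replicate 1, 0.558 (0.484 to 0.643) for replicate 2 and 1.06 (0.918 to 1.23) for replicate 3. In RPF the counts were 47, 27 and 90 in shCtr and 58, 48 and 88 in shOSGEP, with ratios of 1.81 (1.21 to 2.72), 0.908 (0.555 to 1.51) and 1.27 (0.932 to 1.72). The pairs pointed in different directions in both assays. The fitted RPF log2 changes were 0.62 (standard error 0.76) for H2-DMa and 0.48 (standard error 0.54) for H2-DMb1, and neither passed the threshold (edgeR, adjusted p = 1.0 for each). The value of H2-DMa was 0.027 without the shOSGEP library of replicate 3, and that of H2-DMb1 was −0.12 without the shOSGEP library of replicate 1. Of the 30-base words of the longest coding transcript of H2-DMb1, 38.3% also occurred in H2-DMb2, a neighbouring copy that had 6 counts in the shOSGEP total RNA library of replicate 1 and 0 in every other library.

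Levels were compared between genes per kilobase, on exon length for total RNA. In shCtr total RNA, H2-DMb1 was highest at 4.6 ± 0.45 CPM per kilobase, followed by Cd74 at 1.91 ± 1.42, H2-DMa at 0.431 ± 0.105 and H2-Ab1 at 0.051 ± 0.0571 (SD, n = 3). The ranges of neighbours in that order did not overlap among the first 3 genes. H2-Eb1, H2-Aa and Ciita had at most 2 counts in any shCtr library and were not ordered. In shOSGEP, Cd74 stood above H2-DMb1 in replicate 1 (64.6 against 7.96 CPM per kilobase) and in replicate 3 (7.9 against 4.33), and below it in replicate 2 (1.82 against 2.72).

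Of the remaining class II genes, H2-Oa, H2-Ob, H2-DMb2 and H2-Eb2 were matched and none passed the filter. H2-Ob, the beta chain of the inhibitor H2-O, had 19 counts in the shOSGEP total RNA library of replicate 1 and 0 in the other 5 total RNA libraries. H2-Oa, its alpha chain, had 23 counts in that library and 1 to 7 in the others. The 14 protein-coding genes between H2-Oa and H2-Eb2, a stretch chosen after the values were seen, were also read in their order on the chromosome. In total RNA of replicate 1, 12 of 14 were higher in shOSGEP, including the class I peptide genes Psmb8, Psmb9, Tap1 and Tap2 that lie among the class II genes. There 1 of 14 was lower. In total RNA of replicate 3, 7 of 14 were higher and 2 lower, and in replicate 2, 2 were higher and 7 lower. For footprints 10, 7 and 9 of 14 genes were higher in replicates 1, 2 and 3, and 1, 2 and 3 were lower. The remaining genes of each pair had no count in either library, and several others had few counts. Some footprint differences rested on single counts, such as H2-Oa in replicate 1 (0 to 1) and H2-Eb2 in replicate 3 (1 in each library). Over all genes tested, the median log2 change in total RNA was 0.008, 0.01 and 0.002 in replicates 1, 2 and 3. In RPF it was −0.0003, −0.0048 and 0. The share of all genes higher in a single pair was not computed, so nothing is read from these counts of genes.

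**Figure D3:**
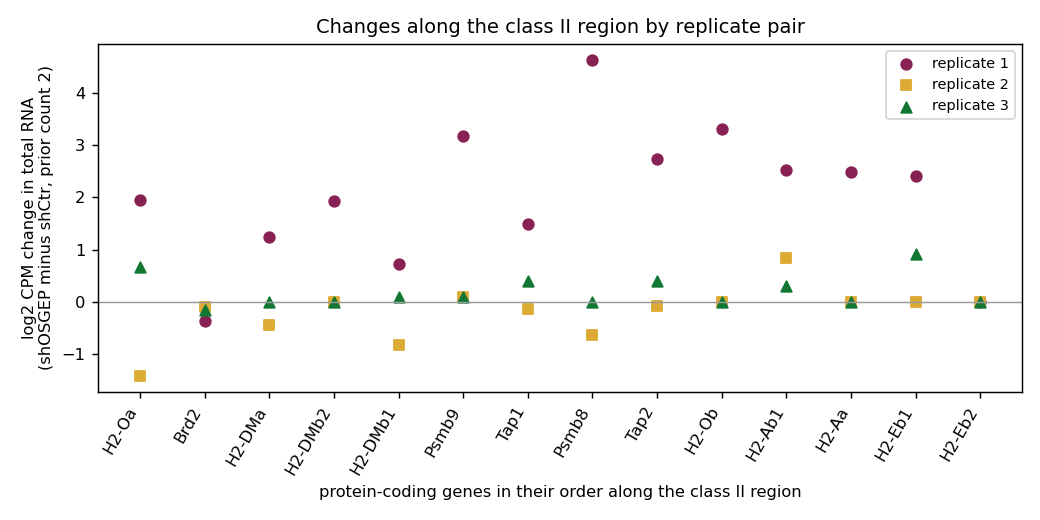
Change in total RNA within each replicate pair (shOSGEP minus shCtr, log2 CPM with a prior count of 2) for 14 protein-coding genes in chromosomal order. Points at 0 include genes with no count in either library, and most class II genes here have few counts. Replicate 1 is high along the region except at Brd2 and H2-Eb2.

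The regulators that assemble on class II promoters were expressed without a common direction. All 7 enhanceosome genes (the RFX subunits Rfx5, Rfxap and Rfxank, the NF-Y subunits Nfya, Nfyb and Nfyc, and Creb1) passed the filter in both assays and none passed the test (edgeR, adjusted p under 0.05 in 0% of the 14516 genes of total RNA, with 259 at an unadjusted p under 0.05). Their median fitted log2 change was 0.06 in total RNA, against 0.02 over all genes. Nfyc was lower in 3 of 3 pairs of both assays and Creb1 in 3 of 3 of total RNA, while Nfyb was higher in 3 of 3 of both. Being lower in 3 of 3 pairs was a property of 2351 of the 14516 genes in total RNA and 2055 of 13529 in RPF, so nothing is read from it here. The counts of Nfyc in total RNA were 2629, 3235 and 2383 in shCtr and 808, 4186 and 2412 in shOSGEP, from libraries of unequal size. Its CPM ratios were 0.28 (0.258 to 0.303), 0.928 (0.886 to 0.972) and 0.827 (0.782 to 0.876). In RPF they were 0.428, 0.872 and 0.698, and the fitted changes did not pass the test.

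Among 7 genes of the interferon gamma route to Ciita, none passed the test in either assay, and the median fitted log2 change in total RNA was 0.10. Irf1, an interferon-induced transcription factor, had 769, 656 and 1105 counts in shCtr total RNA and 3269, 1215 and 1292 in shOSGEP, with ratios of 3.87, 1.33 and 0.956. It was highest in replicate 1, and in replicate 3, where the ratio of Cd74 was 7.64, it was near 1.

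The class II processing list (9 genes, 7 of which passed the filter) also had no call, and its median log2 change was 0.13 for total RNA and −0.21 for RPF. Ctss, the protease that trims CD74 in antigen-presenting cells, had at most 3 counts in any library, whereas Ctsl, which does so in thymic epithelium, had 4402 to 12356 counts in total RNA. Among the partners of CD74 as a receptor, Mif had 15357 to 26819 and Cd44 31431 to 59909 counts in total RNA, and their total RNA ratios lay between 0.841 and 1.09. In RPF the ratios of Mif were 1.28 (1.2 to 1.36), 0.645 (0.581 to 0.716) and 0.607 (0.532 to 0.691), so its pairs differed in direction. Ddt, another ligand of CD74, had total RNA ratios of 2.23, 1.17 and 0.811 and RPF ratios of 3.11, 1.17 and 0.608. Cxcr4 had 0 counts in each total RNA library and Cxcr2 at most 4.

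Interferon-stimulated and class I genes were set beside Cd74 by replicate. The 16 interferon-stimulated genes that passed the filter in total RNA, of 18 listed, had a median log2 change of 3.37, 0.52 and 0.32 in replicates 1, 2 and 3, and none passed the test. The 9 class I presentation genes had medians of 2.08, −0.09 and 0.15. Cd74 itself was at 4.18, 0.67 and 2.91. Its change thus lay near that of Ifit1 (4.15) and Gbp2 (4.70) in replicate 1, but in replicate 3 Ifit1 was at 0.54 and Gbp2 at 0.98.

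**Figure D4:**
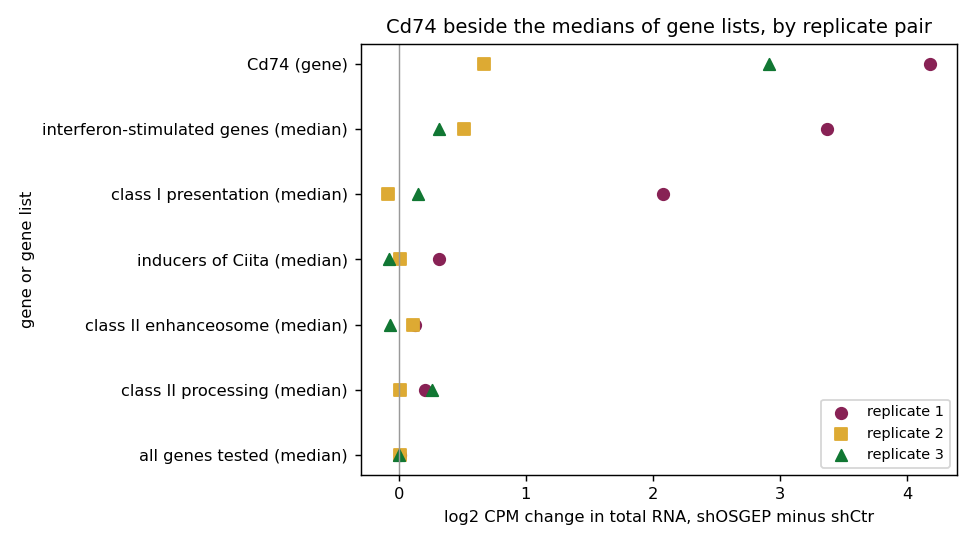
Log2 CPM change in total RNA (shOSGEP minus shCtr) of Cd74 and the median change of 5 gene lists and of all genes tested, with 1 point per replicate pair. In replicate 3 Cd74 is at 2.91, while the interferon and class I medians are at 0.32 and 0.15.

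The genes whose pattern over the 12 libraries was most like that of Cd74 were Gadd45a, Slc6a9, Timp3, Chac1 and C1rl, with Pearson r of 0.979 to 0.982 among 3374 protein-coding genes compared. These values describe log2 CPM centred within each assay, and the points share cell samples and one far library pair. Gadd45a, a stress-inducible gene of the DNA damage response, had total RNA ratios of 5.33, 1.36 and 2.46. Chac1, which degrades glutathione and is induced by ATF4, had 3.53, 1.71 and 2.13. Timp3, an inhibitor of matrix proteases, had 4.99, 1.13 and 2.45. In each of the genes named for likeness, replicate 3 was the intermediate pair in total RNA, as for Cd74. Their choice by correlation with Cd74 favours that order, so nothing is read from it. Of the genes on the fixed lists, Col1a1 was highest at r = 0.961 (rank 21 of the 3374). Several interferon-stimulated and class I genes were also high, with Ifih1 and Ifit3 at 0.95, Gbp2 at 0.945 and Tap1 at 0.943 (ranks 41 to 76). Of the class II members, H2-DMb1 reached r = 0.871 (rank 451) and H2-DMa 0.674 (rank 1130), so many other genes were more like Cd74.

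Markers of other cells were read beside these results. In bulk samples, more cells of a type and more RNA per cell cannot be told apart. Of 20 leukocyte markers, 8 had 0 counts in all 6 total RNA libraries and 11 had at most 3. Cd3d, Ms4a1, Itgax, Tyrobp and Nkg7 had no count in any library, and Ptprc (CD45) had 5 counts in the shOSGEP total RNA library of replicate 1 and 0 in the other 5. The summed level of the list in total RNA was 2.81 to 2.83 CPM in shCtr and 2.4 to 3.95 CPM in shOSGEP. By library, Cd74 was far above this sum only in shOSGEP replicates 1 (108 against 3.95 CPM) and 3 (13.3 against 3.29 CPM), whereas in shOSGEP replicate 2 it was at 3.06 against 2.4 CPM and in shCtr at 1.74 to 5.95 CPM. Single leukocyte markers did not share a direction in total RNA of replicate 1. From shCtr to shOSGEP, Csf1r went from 6 to 33 counts, Laptm5 from 8 to 46, Lyz2 from 41 to 85 and Coro1a from 41 to 65. Fcer1g went from 26 to 1, Cd79a from 24 to 6 and Spi1 from 14 to 4. Of the 8 endothelial and fibroblast markers, 3 had no count in total RNA, and the summed level was 3.96 to 5.53 CPM in shCtr and 4.91 to 24.2 CPM in shOSGEP. Col1a1, a fibroblast collagen, had 66, 30 and 26 counts in shCtr total RNA and 987, 48 and 159 in shOSGEP, with ratios of 13.6, 1.15 and 5.0. It was high in the same replicates as Cd74. Col3a1, Cdh5 and Kdr were the markers with no count in total RNA, and Dcn and Tek had at most 4 counts there. Pdgfra was higher in each pair of both assays, with total RNA ratios of 2.025, 1.27 and 1.19 and RPF ratios of 2.02, 1.07 and 1.13. Its RPF intervals in replicates 2 and 3 included no change. The total RNA ratios of Pecam1 were 1.82, 0.645 and 0.727. The part of Col1a1 and Pdgfra in the result was not tested.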

How the data were processed

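Groups and replicate numbers came from the sample labels. The authors deposited raw read counts per Ensembl gene, 1 table for RPF and 1 for total RNA, with no normalisation. The labels name FastQC, Trim Galore, cutadapt and STAR and the builds GRCm38 and GRCm39. The methods of the study name STAR and Salmon for an RNA sequencing experiment and STAR on coding transcripts for footprints. Whether these steps made the deposited tables is uncertain, and the use of strand is not given in the sources used here, so reads of overlapping or near-identical genes may be shared or lost. No column was left without a sample. The members and the gene lists were chosen with earlier results of these data known.

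Symbols, coordinates and lengths came from the GENCODE annotation of GRCm38, in which 55227 of 55487 gene IDs and 103 of 104 listed genes were found. The quasi-likelihood test came from edgeR 4.0.16 (R 4.3.3), with filterByExpr, TMM factors and Benjamini-Hochberg adjustment over all genes (threshold 0.05), separately for RPF (13529 genes) and total RNA (14516 genes). Translational efficiency was the interaction of assay and genotype (12560 genes), without pairing by cell sample in the main fit. Standard errors of the edgeR fits were the absolute log2 change divided by the square root of the F statistic of its test. The log2 CPM used a prior count of 2. Pair ratios carry exact binomial (Clopper-Pearson) 95% intervals, which cover counting error only because PCR copies were not marked. The study states 3 independent transductions. Same-numbered libraries deviated together (correlation across genes RPF 0.59, 0.51 and 0.66, total RNA 0.52, 0.54 and 0.29), so the numbers were taken to pair the samples in an alternative fit. Genes named for likeness were the 5 protein-coding genes, kept in both assays with an SD of at least 0.5, with the highest r with Cd74. The other named genes were the members, the lists and Osgep, and those of the chromosomal stretch, chosen after their values were seen. Alternatives were RLE size factors, no filter, protein-coding genes only, the replicate block, DESeq2 1.42.0, the thresholds of the study and leaving out each library. Leaving out both libraries of a replicate was chosen after seeing the data. The scripts were tested on simulated counts. A gene of the fixed lists is not reported here.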

Additional observations from a re-analysis of the deposited data

How the results depend on the processing

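The number of genes called was 0 in RPF, total RNA and translational efficiency (139, 259 and 17 at an unadjusted p under 0.05). With the thresholds of the study (unadjusted p under 0.05 and a log2 change over 0.5) it was 139, 223 and 17. Without a filter it was 229 in RPF and 0 in the other comparisons, with DESeq2 1 in RPF and 8 in total RNA, and with the replicate block 1 in total RNA. In the RPF fit without a filter the prior degrees of freedom were infinite, so each gene took the spread of the common trend. The cause of the differences between settings was not tested.

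For Cd74 in RPF the log2 change was 3.63 without a filter, where it passed the threshold (edgeR, adjusted p = 6.32e-10). That fit did not use the spread of Cd74 itself between replicates, so this p does not measure it. The standard error was 0.502 there and 1.59 in the main fit. With the replicate block the log2 change was 2.55, and it did not pass. Leaving out libraries gave 0.39 to 4.89 in RPF and 1.33 to 4.51 in total RNA, the lowest in both without the shOSGEP library of replicate 1. The replicate block gave 2.68 in total RNA. The translational efficiency of Cd74 turned to −0.42 with the replicate block by cell sample and ranged from −0.91 to 0.36 over the fits without libraries. Over these fits H2-DMa lay between 0.027 (without the shOSGEP library of replicate 3) and 1.02 for RPF, between −0.17 and 0.84 for total RNA and between −0.68 and 1.09 for translational efficiency. H2-DMb1 lay between −0.12 and 0.78 for RPF and between −0.39 and 0.46 for total RNA, where the replicate block gave −0.0086. The block changed no call of these genes. Ciita, H2-Aa, H2-Ab1 and H2-Eb1 have no value under the filter and so were not compared across settings. Depth limits these 4 genes most, since most of their libraries held 0 to 5 counts.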
